A study of Mus musculus with 9 samples.

Results

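The Hedgehog genes described here are the ligands Shh and Ihh, the receptor Ptch1, the ligand-binding antagonist Hhip, the signal transducer Smo, the transcription factors Gli1, Gli2 and Gli3, and the negative regulator Sufu. Their probes were found by an exact match of the gene name given in the array files, leaving out control spots. This gave 9 genes with 17 probes, of 41174 probes on the array. Of the 17 probes, 16 passed the filter, which asked for Cy5 signal well above background on 2 or more arrays of 9. The exception was 1 of the 2 Gli3 probes, whose Cy5 signal never rose well above background. The brightest probe stood for its gene, and these 9 were among 22619 gene names tested.

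Esophagus RNA of newborn C57BL/6J mice (postnatal day 0) was profiled on Agilent arrays with 2 colours. The groups were p63 knockout mice with a Cdx2 transgene (p63KO/Villin-Cdx2, n = 2), p63 knockout mice without it (p63KO, n = 3) and wild type mice (WT, n = 4). Trp63 encodes p63, a transcription factor needed for stratified squamous epithelium. Cdx2 specifies intestinal epithelium, and the transgene is named for the villin promoter, which is active there. The labels number the p63KO/Villin-Cdx2 samples out of 3, of which 2 are analysed here. The source label of WT replicate 4 names a p63 knockout, while its title, description and genotype label name wild type, and it was kept as WT. Each sample was labelled with Cy5 and hybridised against Cy3-labelled RNA from 11 mouse cell lines, with no dye swap. A log2 ratio below is sample over this reference RNA, and a sample signal is the log2 Cy5 intensity after normalization. The labels name epithelium as the cell type, while the RNA was extracted from esophageal tissue.

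Hedgehog ligands are secreted proteins that bind Ptch1 and so release Smo from its inhibition, which turns the Gli factors towards activation of their targets. Ptch1, Hhip and Gli1 are themselves targets of the pathway, so their transcripts are commonly read as a measure of its activity. In the developing foregut and gut, the epithelium makes the ligands and the mesenchyme around it carries much of the response.

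For 4 of the genes that serve as readouts or transducers a probe is shown, since these are the stretches of transcript that were measured. They are given 5′ to 3′ in the sense of the transcript as in the array files, with build mm9 coordinates and no part in capitals. The Gli1 probe lies at chr10:126767991-126768050 on the minus strand. The Ptch1 probe shown, which is not the brightest of its 2, lies at chr13:63612907-63612966 on the minus strand. The Smo probe shown, 1 of 3 and not the brightest, lies at chr6:29705582-29706815 on the plus strand, a span longer than the probe's 60 bases. The brightest Sufu probe lies at chr19:46529259-46529318 on the plus strand.
Gli1: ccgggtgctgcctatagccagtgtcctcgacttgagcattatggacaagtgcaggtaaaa
Ptch1: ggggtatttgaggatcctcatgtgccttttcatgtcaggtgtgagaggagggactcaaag
Smo: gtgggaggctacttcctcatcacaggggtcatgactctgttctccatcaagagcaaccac
Sufu: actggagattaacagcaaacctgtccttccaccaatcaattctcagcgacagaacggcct
Each of these probes has at least 1 reading frame without a stop codon over its 60 bases, and the array files give no exon or UTR label for these positions. The other probes are named by gene only.

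Before the members, 3 properties of the arrays bear on their values. Every genotype had its own slide and its own scan, so effects of slide, scan and genotype cannot be told apart. WT replicate 3 had the narrowest log2 ratios of all 9 arrays, with an SD of 0.805 over genes against 0.964 to 1.06 on the other 8. Markers of the muscle and connective layers were present on all arrays. The 7 smooth muscle markers were well above background on all 9, and so were the 7 fibroblast and the 6 skeletal muscle markers. The summed sample signal (log2) of the smooth muscle markers was 17.75 and 18.11 in p63KO/Villin-Cdx2, 18.00 to 18.10 in p63KO and 18.32 to 19.18 in WT, without overlap between knockout and WT arrays, and 0 of 7 passed in any comparison. The fibroblast sum was 19.61 and 19.88 in p63KO/Villin-Cdx2, 19.97 to 20.20 in p63KO and 19.85 to 20.15 in WT. The part of these layers in the Hedgehog signals was not tested. The brightest Trp63 probe had log2 ratios of 3.37 and 3.09 in p63KO/Villin-Cdx2, 2.73 to 2.74 in p63KO and 3.39 to 4.13 in WT. A second Trp63 probe ran the other way, with 1.43 and 1.13 in p63KO/Villin-Cdx2, 0.72 to 0.83 in p63KO and 0.16 to 0.73 in WT. The labels do not say which part of Trp63 is deleted, so these probes do not check the genotype. The summed sample signal of 5 squamous basal markers (Krt5, Krt14, Krt15, Trp63 and Col17a1) was 15.30 and 15.43 in p63KO/Villin-Cdx2, 15.16 to 15.69 in p63KO and 17.85 to 18.26 in WT, and the knockout arrays did not overlap WT. Of these 5 genes, 2 passed as lower in p63KO against WT and 2 in p63KO/Villin-Cdx2 against WT. Of 5 suprabasal squamous markers, 3 and 4 passed as lower in these comparisons. Over all genes, 0.327% and 1.41% passed in either direction. In the sample channel taken alone, 5 and 4 of the 5 basal markers passed as lower, and 4 and 4 of the suprabasal markers. There 1.77% and 2.44% of all genes passed in either direction. Of the markers of simple epithelium, enteric neurons and glia, adipocytes, immune cells and endothelium, 0 passed in any comparison. In whole tissue, fewer cells of a type and less RNA per cell cannot be told apart.

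No Hedgehog member passed the test in any of the 3 comparisons between genotypes. In limma with Benjamini-Hochberg adjustment at 0.05 over all genes, 0 of 9 members passed in p63KO against WT, where 0.327% of all genes did. In p63KO/Villin-Cdx2 against p63KO, 0 of 9 passed, and so did 0% of all genes. In p63KO/Villin-Cdx2 against WT, 0 of 9 passed, where 1.41% of all genes did. At an unadjusted p under 0.05 the counts were 1, 0 and 1 of 9, against 7.79%, 11.4% and 18.1% of all genes. The sample channel taken alone also gave 0 of 9 in each, where 1.77%, 0.234% and 2.44% of all genes passed. The members divided between both directions, with 4 higher and 5 lower in p63KO against WT, 7 and 2 in p63KO/Villin-Cdx2 against p63KO, and 6 and 3 in p63KO/Villin-Cdx2 against WT. Their median log2 differences were -0.02, 0.03 and 0.04 in these comparisons, beside 0.02, -0.03 and -0.00 over all genes. The comparisons share arrays, so their values are not independent of each other.

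**Figure D1:**
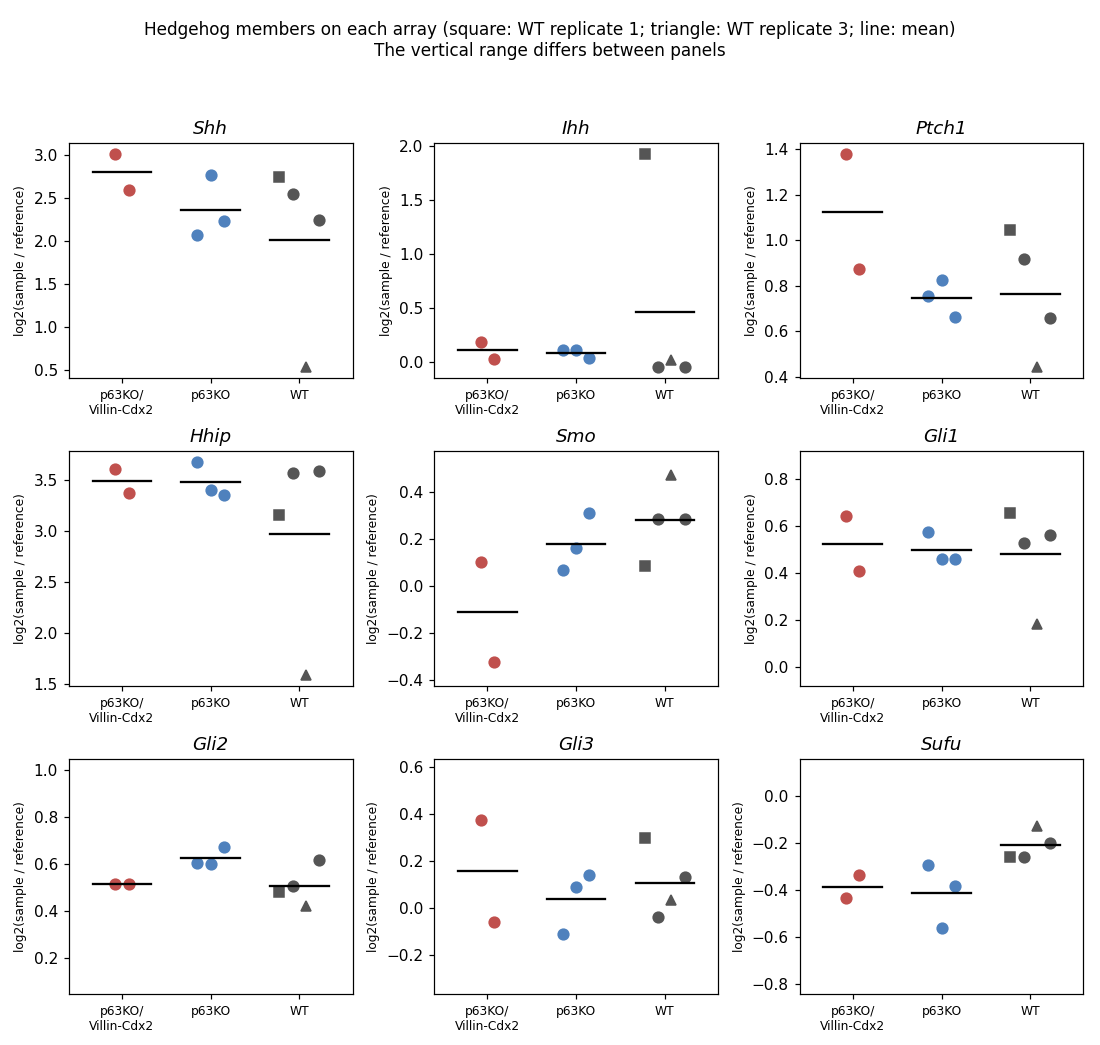
Log2 ratio of sample over reference RNA (vertical axis, with a different range in each panel) for the brightest probe of each Hedgehog member, by genotype. Each point is 1 array and each line is a group mean. WT replicate 3 (triangle) is the lowest array for Shh, Hhip, Ptch1 and Gli1, and WT replicate 1 (square) is far above the other 8 for Ihh.

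Shh, the ligand made by foregut epithelium, was well above background on all 9 arrays. Its log2 ratio was 3.01 and 2.59 in p63KO/Villin-Cdx2, 2.07, 2.76 and 2.24 in p63KO, and 2.74, 2.54, 0.53 and 2.25 in WT. WT replicate 3 stood far below the other 8 arrays, which lay between 2.07 and 3.01 in every genotype, and the groups overlapped in all comparisons. The group means were 2.80 ± 0.30 (SD, n = 2) in p63KO/Villin-Cdx2, 2.36 ± 0.36 (n = 3) in p63KO and 2.02 ± 1.01 (n = 4) in WT. The log2 difference was 0.34 in p63KO against WT (95% interval -0.79 to 1.47, limma adjusted p = 0.887). It was 0.44 in p63KO/Villin-Cdx2 against p63KO (-0.91 to 1.79, limma adjusted p = 0.803) and 0.78 in p63KO/Villin-Cdx2 against WT (-0.50 to 2.06, limma adjusted p = 0.511). All 3 intervals include 0 and reach above 1 on the log2 scale, so the arrays do not bound Shh closely. Without WT replicate 3 the difference in p63KO against WT turned to -0.15 (-0.65 to 0.35) and that in p63KO/Villin-Cdx2 against WT was 0.29 (-0.27 to 0.85).

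Ihh, the ligand known chiefly from cartilage and from the columnar epithelium of stomach and intestine, had ratios near 0 on 8 arrays and a high ratio on 1. Its log2 ratio was 0.19 and 0.02 in p63KO/Villin-Cdx2, 0.11, 0.10 and 0.03 in p63KO, and 1.92, -0.05, 0.02 and -0.05 in WT. The high array was WT replicate 1, where the sample signal was 9.61, against 6.54 to 6.78 on the other 8. WT replicates 2 and 4 were not well above background. A second Ihh probe gave the same picture, with a log2 ratio of 1.76 on WT replicate 1 and -0.08 to 0.34 on the other 8 arrays. The log2 difference of the main probe was -0.38 in p63KO against WT (-1.42 to 0.66, limma adjusted p = 0.866), 0.02 in p63KO/Villin-Cdx2 against p63KO (-1.22 to 1.26, adjusted p = 0.991) and -0.36 in p63KO/Villin-Cdx2 against WT (-1.53 to 0.82, adjusted p = 0.770). WT replicate 1 set the sign of both comparisons with WT, since without it they were 0.11 (-0.07 to 0.29) and 0.13 (-0.07 to 0.33).

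WT replicate 1 also stood apart in markers of the stomach. A list of 14 genes of gastric epithelium, of which 12 were measured and which was drawn up after values were seen, had a summed sample signal of 18.22 on that array. It was 13.01 and 13.81 in p63KO/Villin-Cdx2, 13.79 to 14.95 in p63KO and 11.06 to 12.73 on the other WT arrays. For 8 of the 12 markers WT replicate 1 was the highest of all arrays, with Tff2, Muc5ac, Muc6 and Chia1 as the exceptions. Among the 8 was Gkn2, a gastrokine of surface mucous cells, with a log2 ratio of 4.22 there and -0.04 to 0.88 elsewhere. Another was Atp4b, a subunit of the parietal cell proton pump, with 2.98 there and -0.21 to 0.72 elsewhere. Of 10 intestinal markers 2 were highest on that array, namely Lgals4 and Vil1. Of the gastric and intestinal lists 0 of 12 and 0 of 10 genes passed in any comparison between genotypes, and 0 of the 11 lung markers described below did. The 10 cartilage markers, in contrast, summed to 13.83 on WT replicate 1, within the 13.63 to 17.02 of the other 8 arrays. The part of stomach or intestine in the Ihh signal was not tested.

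The genes whose log2 ratio was most like that of Ihh over the 9 arrays were Sult1d1, a sulfotransferase, Myo1a, a brush border myosin, and Rep15, a Rab15 effector. Pearson's r was 0.987, 0.987 and 0.975, among 15494 genes well above background on all arrays. Sult1d1 had 4.65 on WT replicate 1 and 0.58 to 1.31 on the other 8 arrays. Without WT replicate 1, r over 8 arrays was 0.63 for Sult1d1, -0.21 for Myo1a and -0.25 for Rep15, so the likeness to Myo1a and Rep15 rested on that array.

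**Figure D2:**
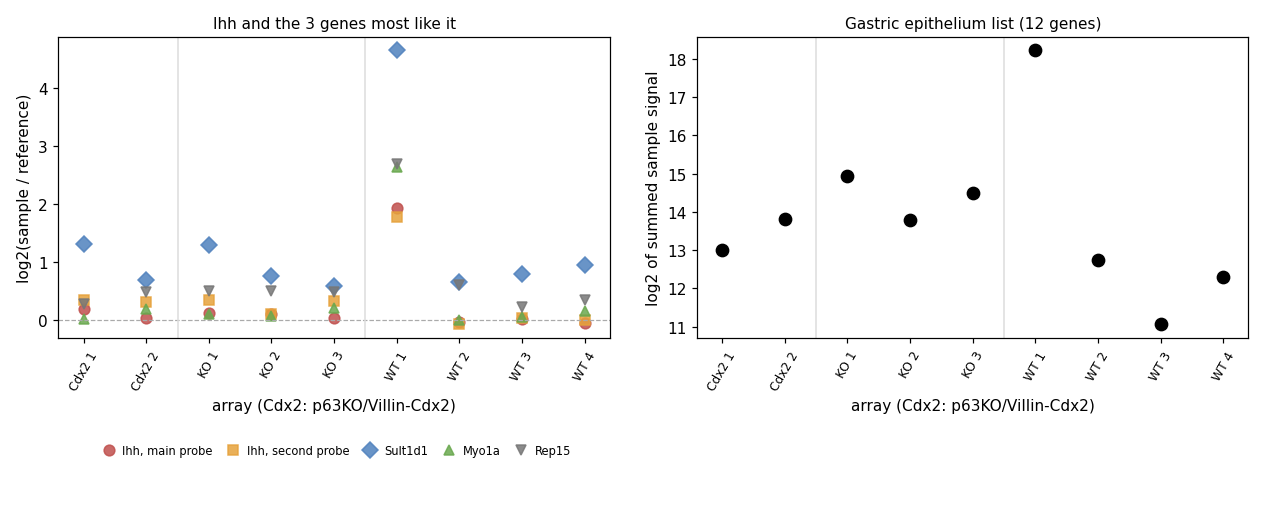
Left, log2 ratio of sample over reference RNA for both Ihh probes and the 3 genes most like Ihh, by array. Right, log2 of the summed sample signal of 12 gastric epithelium markers on the same arrays. WT replicate 1 is the highest array in both panels, with 18.22 in the marker sum against 11.06 to 14.95 on the other 8.

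Hhip, a membrane protein that binds and sequesters Hedgehog ligands and is induced by the pathway, was well above the reference on all 9 arrays. Its log2 ratio was 3.61 and 3.38 in p63KO/Villin-Cdx2, 3.68, 3.41 and 3.35 in p63KO, and 3.15, 3.57, 1.58 and 3.59 in WT. As for Shh, WT replicate 3 was far below the rest, and with this probe the other 8 arrays overlapped across genotypes. The second Hhip probe gave 2.82 and 2.73 in p63KO/Villin-Cdx2, 2.78, 2.66 and 2.27 in p63KO, and 2.35, 2.37, 0.60 and 2.53 in WT. With this probe both p63KO/Villin-Cdx2 arrays lay above all WT arrays, where 13.9% of all genes were higher without overlap. Tested among all probes, that difference was 0.81 (-0.30 to 1.92, limma adjusted p = 0.422). The difference of the main probe was 0.51 in p63KO against WT (-0.52 to 1.53, limma adjusted p = 0.819). It was 0.01 in p63KO/Villin-Cdx2 against p63KO (-1.21 to 1.24, limma adjusted p = 0.994) and 0.52 in p63KO/Villin-Cdx2 against WT (-0.64 to 1.68, limma adjusted p = 0.646). Without WT replicate 3 these became 0.04 (-0.31 to 0.39), 0.01 (-0.38 to 0.41) and 0.06 (-0.34 to 0.45), and all 3 intervals then stayed within 0.45 of 0 on the log2 scale. The second probe was not refitted without that array. Its p63KO/Villin-Cdx2 values of 2.82 and 2.73 also lay above the remaining WT values of 2.35, 2.37 and 2.53.

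Both channels contributed to the low Hhip ratio on WT replicate 3. There the reference signal of the main probe was 7.98, against 7.16 to 7.52 on the other 8 arrays, and the sample signal was 9.56, against 10.45 to 11.01. For Shh the sample signal was 7.89 on WT replicate 3 and 8.74 to 10.28 elsewhere, while its reference signal there lay within the range of the other arrays.

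The low Shh and Hhip values on WT replicate 3 stood beside low ratios over many genes of that array. Of 1142 genes with a log2 ratio above 2 on each other WT array, 31.5% were lower by more than 1 on WT replicate 3, and the median difference was -0.63. Set up in the same way, the share was 0% to 6.33% for the other WT arrays. Those shares come from other and smaller sets of 701 to 790 genes, since genes at or below 2 on WT replicate 3 dropped out of them. The part of this array-wide difference in the Shh and Hhip values was not tested. Markers of lung were also low there. A list of 11 genes of alveolar epithelium, drawn up after values were seen, was well above background in full on all 9 arrays. Its summed sample signal was 18.72 and 18.83 in p63KO/Villin-Cdx2, 18.63 to 19.04 in p63KO, and 18.86, 19.09, 16.26 and 18.53 in WT. WT replicate 3 was the lowest of all arrays for 9 of the 11, with Hopx and Sftpd as the exceptions. Sftpc, the surfactant protein made by alveolar type II cells, had a sample signal of 15.7 on WT replicate 3 and 18.3 to 18.7 on the other 8 arrays. Sftpb, another surfactant protein, had 7.39 there and 10.12 to 11.64 elsewhere. Pearson's r with the marker sum over 9 arrays was 0.89 for Shh and 0.95 for Hhip, and over the 8 arrays without WT replicate 3 it was -0.03 and 0.14. The points share arrays and normalization, and 1 array carried the relation. The summed signal of 6 airway markers (Scgb1a1 and Foxj1 among them) did not show it, with 19.45 on WT replicate 3 and 17.18 to 19.66 elsewhere. Of the 6, 1 was lowest on WT replicate 3, namely Nkx2-1. The part of lung RNA in the Shh and Hhip signals was not tested.

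**Figure D3:**
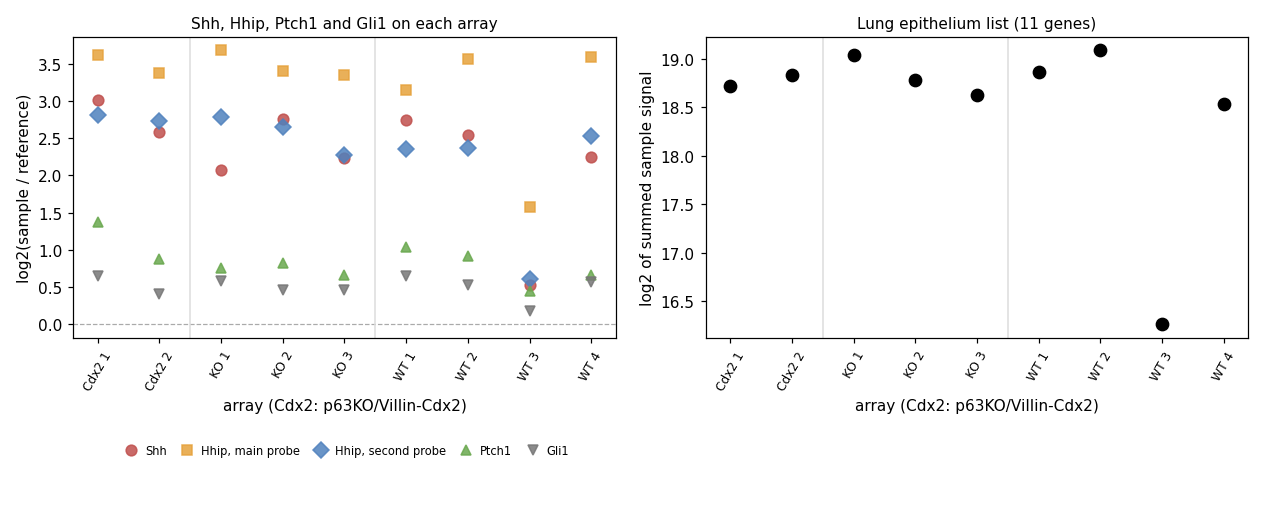
Left, log2 ratio of sample over reference RNA for Shh, both Hhip probes, Ptch1 and Gli1, by array. Right, log2 of the summed sample signal of 11 lung epithelium markers, 16.26 on WT replicate 3 and 18.53 to 19.09 on the other 8 arrays. WT replicate 3 is the lowest array for every plotted quantity.

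The 3 genes most like Shh over the 9 arrays were Foxp2, a forkhead factor of lung epithelium among other tissues, Slit2, a secreted guidance factor, and Raver2, an RNA-binding protein. Pearson's r was 0.985, 0.984 and 0.983, among 15493 genes. Foxp2 had a log2 ratio of 3.12 on WT replicate 3 and 4.56 to 5.60 on the other 8 arrays. Over the 8 arrays without WT replicate 3, r was 0.91, 0.93 and 0.94, and these genes were picked for their likeness on arrays that include those 8. Those 8 arrays were not separated by genotype in any of the 3 genes.

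Ptch1, the Hedgehog receptor and a target of the pathway, was well above background on all arrays with both probes. The brighter probe had log2 ratios of 1.38 and 0.87 in p63KO/Villin-Cdx2, 0.75, 0.83 and 0.66 in p63KO, and 1.04, 0.92, 0.44 and 0.66 in WT. Both p63KO/Villin-Cdx2 arrays lay above all p63KO arrays, the second by a small margin, and within or above the range of WT. In p63KO/Villin-Cdx2 against p63KO, 14.0% of all genes were higher without overlap. There the difference was 0.38 (-0.08 to 0.84, limma adjusted p = 0.506), a fold change of 1.30 (0.943 to 1.79). It was 0.36 in p63KO/Villin-Cdx2 against WT (-0.08 to 0.80, limma adjusted p = 0.365) and -0.02 in p63KO against WT (-0.40 to 0.37, limma adjusted p = 0.985).

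The Ptch1 probe printed above did not separate the groups, with 0.21 and -0.08 in p63KO/Villin-Cdx2, 0.03, -0.02 and -0.17 in p63KO, and 0.32, 0.05, -0.02 and 0.01 in WT. In both probes the first p63KO/Villin-Cdx2 array and WT replicate 1 were the 2 highest of the 9. Leaving out the first p63KO/Villin-Cdx2 array lowered the difference from p63KO to 0.12 in the brighter probe, and that from WT to 0.11. Ptch1 and Shh varied together over the 9 arrays, with r = 0.80, and with r = 0.85 over the 8 arrays without WT replicate 3. Both ran against the summed sample signals of several marker lists, among them the enteric neuron and glia markers and the cartilage markers. With the 5 measured enteric markers r was -0.96 for Ptch1 and -0.85 for Shh, and without WT replicate 3 it was -0.94 and -0.95. With the 10 cartilage markers r was -0.94 for Ptch1 and -0.89 for Shh, and without WT replicate 3 it was -0.93 and -0.87. With the fibroblast markers r was -0.83 for Ptch1 and -0.62 for Shh, and without WT replicate 3 it was -0.83 and -0.84. With the airway markers these were -0.82 and -0.49, and -0.87 and -0.78 without that array. With the endothelium markers r was positive over the 9 arrays, 0.34 and 0.64, and -0.14 for both without WT replicate 3. The enteric sum was 12.32 and 13.45 in p63KO/Villin-Cdx2, 13.14 to 13.99 in p63KO and 13.18 to 14.57 in WT, and overlapped between the genotypes. These lists were singled out after the values were seen, and the part of those tissues in the Ptch1 and Shh signals was not tested.

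Smo, the membrane protein through which Ptch1 acts, had 3 probes, all well above background on all arrays. The brightest had log2 ratios of 0.10 and -0.33 in p63KO/Villin-Cdx2, 0.07, 0.16 and 0.31 in p63KO, and 0.08, 0.29, 0.47 and 0.29 in WT. The second p63KO/Villin-Cdx2 array was the lowest of all, and the first lay within the range of the other groups. The difference in p63KO/Villin-Cdx2 against WT was -0.39 (-0.73 to -0.06), with an unadjusted p of 0.0276 and a limma adjusted p of 0.211. It was -0.29 in p63KO/Villin-Cdx2 against p63KO (-0.65 to 0.07, limma adjusted p = 0.507) and -0.10 in p63KO against WT (-0.40 to 0.20, limma adjusted p = 0.871).

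The Smo probe printed above gave -0.62 and -0.56 in p63KO/Villin-Cdx2, -0.51, -0.30 and -0.37 in p63KO, and -0.26, -0.18, -0.08 and -0.35 in WT. Both p63KO/Villin-Cdx2 arrays lay below all others with this probe. Over all genes, 13.8% were lower without overlap against WT and 18.0% against p63KO. Tested among all probes, its difference in p63KO/Villin-Cdx2 against WT was -0.37 (-0.60 to -0.15, limma adjusted p = 0.107). The third Smo probe, read from another transcript record, differed by -0.02 (-0.28 to 0.24) in the same comparison. In p63KO/Villin-Cdx2 against p63KO it had the opposite sign to the other probes, 0.09 (-0.18 to 0.36). The 2 probes assigned to 1 RefSeq transcript gave similar differences between these groups, and neither passed the test. Their sample signals were far apart, with 14.22 to 14.92 for the brightest and 6.91 to 7.44 for the printed probe. The third had 6.60 to 6.92. Whether the probes read the same RNA was not tested.

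Gli1, the Gli factor that acts as an activator and is itself a sensitive target of the pathway, had nearly level ratios across the genotypes. Its log2 ratio was 0.64 and 0.41 in p63KO/Villin-Cdx2, 0.58, 0.46 and 0.46 in p63KO, and 0.65, 0.53, 0.18 and 0.56 in WT. WT replicate 3 was again the lowest, and the other 8 arrays lay between 0.41 and 0.65. In the sample channel WT replicate 3 did not stand apart, with 7.44 against 7.44 to 7.74 on the other 8. The difference was 0.02 in p63KO against WT (-0.26 to 0.30, limma adjusted p = 0.981), a fold change of 1.01 (0.833 to 1.23). It was 0.03 in p63KO/Villin-Cdx2 against p63KO (-0.31 to 0.36, limma adjusted p = 0.962) and 0.04 in p63KO/Villin-Cdx2 against WT (-0.27 to 0.36, limma adjusted p = 0.912), with upper fold bounds of 1.28 in each.

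The 3 genes most like Gli1 over the 9 arrays were Fbxl22, an F-box protein of muscle, Gm7712 and B330016D10Rik. Pearson's r was 0.959, 0.953 and 0.952 among 15493 genes, and 0.88, 0.86 and 0.85 without WT replicate 3. Fbxl22 had a log2 ratio of 1.45 on WT replicate 3 and 1.96 to 2.74 on the other 8 arrays. Over the 9 arrays r of Gli1 with Shh was 0.80 and with Hhip 0.81, but over the 8 arrays without WT replicate 3 these were 0.24 and 0.13.

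Gli2, the main activator of the response in many tissues, had log2 ratios of 0.52 and 0.51 in p63KO/Villin-Cdx2, 0.61, 0.60 and 0.67 in p63KO, and 0.48, 0.51, 0.42 and 0.62 in WT. Both p63KO/Villin-Cdx2 arrays lay just below the p63KO arrays, where 18.0% of all genes were lower without overlap. The difference was -0.11 (-0.30 to 0.08, limma adjusted p = 0.636) in that comparison. It was 0.12 in p63KO against WT (-0.04 to 0.28, limma adjusted p = 0.736) and 0.01 in p63KO/Villin-Cdx2 against WT (-0.17 to 0.19, limma adjusted p = 0.973). The sample channel alone gave the opposite sign in p63KO against WT, -0.24 (-0.42 to -0.06, limma adjusted p = 0.194), and also in p63KO/Villin-Cdx2 against p63KO, 0.20 (-0.02 to 0.42, limma adjusted p = 0.312). The direction of Gli2 in these comparisons therefore changed with the use of the reference channel. The second Gli2 probe was dim and was not well above background on 2 of the 4 WT arrays.

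Gli3, which acts largely as a repressor when ligand is absent, was read from 1 probe with log2 ratios of 0.38 and -0.06 in p63KO/Villin-Cdx2, -0.11, 0.09 and 0.14 in p63KO, and 0.30, -0.04, 0.04 and 0.13 in WT. All groups overlapped. The difference was -0.07 in p63KO against WT (-0.36 to 0.23, limma adjusted p = 0.918), 0.12 in p63KO/Villin-Cdx2 against p63KO (-0.24 to 0.47, limma adjusted p = 0.798) and 0.05 in p63KO/Villin-Cdx2 against WT (-0.29 to 0.39, limma adjusted p = 0.898).

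Sufu, which holds Gli proteins in the cytoplasm and restrains the pathway, was the member with the lowest p in p63KO against WT. Its brightest probe had log2 ratios of -0.44 and -0.34 in p63KO/Villin-Cdx2, -0.29, -0.56 and -0.38 in p63KO, and -0.26, -0.26, -0.13 and -0.20 in WT. All 5 arrays of the knockout genotypes lay below all 4 WT arrays. Without overlap, 4.57% of all genes were lower in p63KO than in WT and 13.8% were lower in p63KO/Villin-Cdx2 than in WT. The difference was -0.20 in p63KO against WT (-0.39 to -0.01), a fold change of 0.869, with an unadjusted p of 0.0399 and a limma adjusted p of 0.610. It was 0.03 in p63KO/Villin-Cdx2 against p63KO (-0.20 to 0.25, limma adjusted p = 0.940) and -0.18 in p63KO/Villin-Cdx2 against WT (-0.39 to 0.04, limma adjusted p = 0.370). The second Sufu probe overlapped between the groups, with -0.39 and -0.51 in p63KO/Villin-Cdx2, -0.37, -0.33 and -0.39 in p63KO, and -0.40, -0.43, -0.12 and -0.38 in WT.

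**Figure D4:**
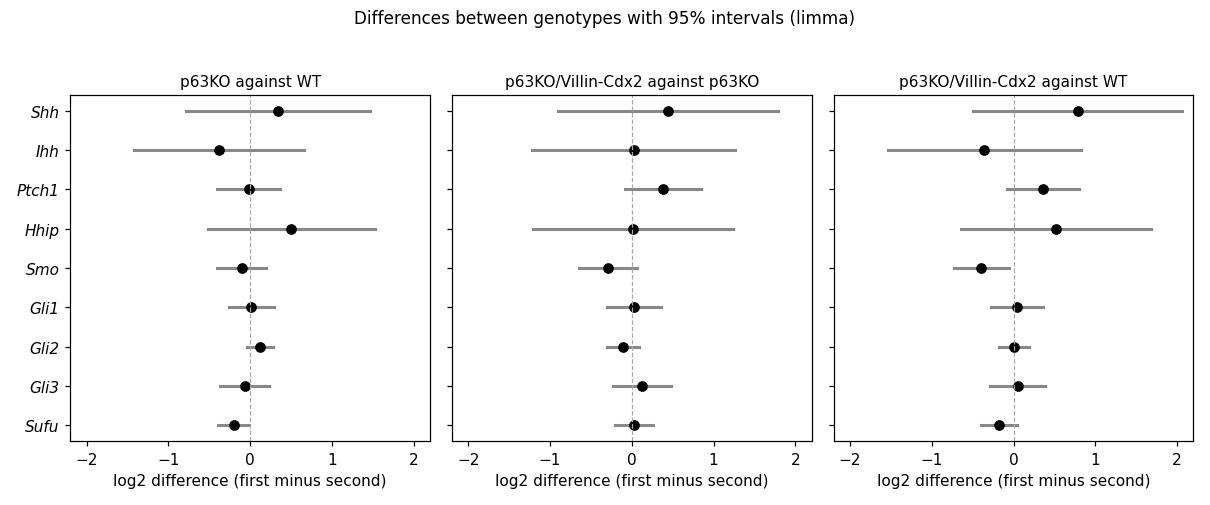
Log2 difference between genotypes (horizontal axis, first group minus second) for the 9 members, with the limma estimate as a point and its 95% interval as a bar. The intervals of Shh, Ihh and Hhip are the widest and those of Gli1, Gli2 and Sufu stay within 0.40 of 0 in all 3 comparisons, none of them past the adjusted threshold.

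The rest of the pathway was read from a list of 30 genes that includes the third ligand Dhh, co-receptors, ligand release factors, ciliary transport genes and the kinases and ubiquitin ligase parts that act on Gli proteins. All 30 were measured, and 0 of 30 passed in any of the 3 comparisons by limma on the ratio. At an unadjusted p under 0.05 the counts were 1 in p63KO against WT, 7 in p63KO/Villin-Cdx2 against p63KO and 9 in p63KO/Villin-Cdx2 against WT, where 7.79%, 11.4% and 18.1% of all genes were under it. The median log2 difference of the list was 0.05, -0.15 and -0.09 in these comparisons, beside 0.02, -0.03 and -0.00 over all genes.

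Spop, the adaptor that brings Gli2 and Gli3 to the Cul3 ubiquitin ligase, had the lowest p of the list in both comparisons of p63KO/Villin-Cdx2. Its log2 ratio was -0.73 and -0.87 in p63KO/Villin-Cdx2, -0.03, -0.46 and -0.50 in p63KO, and -0.29, -0.08, -0.25 and -0.06 in WT. Both p63KO/Villin-Cdx2 arrays lay below all others. Without overlap, 13.8% of all genes were lower against WT and 18.0% against p63KO. The difference in p63KO/Villin-Cdx2 against WT was -0.62 (-0.96 to -0.29, limma adjusted p = 0.0799), and from the Cy5 signal alone it was -0.62 and passed with a limma adjusted p of 0.0358. It was lower in all 23 alternatives and passed in 3 of them. Against p63KO it was -0.47 (-0.82 to -0.12, limma adjusted p = 0.376). In p63KO against WT the lowest p belonged to Lrp2, a large endocytic receptor that binds Shh, with 3.29, 2.93 and 3.17 in p63KO and 2.13, 2.46, 1.91 and 2.81 in WT. All p63KO arrays lay above all WT arrays for Lrp2, as did 5.90% of all genes, and the difference was 0.80 (0.26 to 1.34, limma adjusted p = 0.386).

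Of 16 genes known as Hedgehog targets in mesenchyme or other tissues, 15 were measured. In p63KO against WT and in p63KO/Villin-Cdx2 against p63KO 0 of 15 passed by limma, with 1 and 2 at an unadjusted p under 0.05, where 7.79% and 11.4% of all genes were under it. In p63KO/Villin-Cdx2 against WT 1 of 15 passed, Foxe1, which was lower, and 5 had an unadjusted p under 0.05, beside 1.41% and 18.1% of all genes. The median log2 difference of the list was -0.11, -0.18 and -0.22 in these comparisons, beside 0.02, -0.03 and -0.00 over all genes. Neither Foxf1 nor Bmp4, the targets best known from gut mesenchyme, passed, and they are named here after their values were seen. Their differences in p63KO/Villin-Cdx2 against WT were 0.17 (-0.21 to 0.56) and -0.44 (-0.92 to 0.03).

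Foxe1, a forkhead factor described as a Gli target in skin and also known from thyroid and foregut, had log2 ratios of -0.01 and 0.10 in p63KO/Villin-Cdx2, 0.23, 0.86 and 1.10 in p63KO, and 1.56, 1.48, 1.20 and 2.07 in WT. The groups formed 3 steps without overlap. Taken by pair, 4.57% of all genes were lower without overlap in p63KO against WT. The share was 18.0% in p63KO/Villin-Cdx2 against p63KO and 13.8% in p63KO/Villin-Cdx2 against WT. Foxe1 was not well above background on either p63KO/Villin-Cdx2 array, nor on the first p63KO array. In the sample channel its mean was 6.45 in p63KO/Villin-Cdx2 and 8.66 in WT, at least 4.65-fold lower, a bound that is open to dye bias. On the ratio, which also holds the reference channel, the fitted difference was -1.53 (-2.17 to -0.90, limma adjusted p = 0.0467). Since Foxe1 was measured only at background level in p63KO/Villin-Cdx2, this value and its interval give no exact size of the change. They are also not the same quantity as the sample channel values. Foxe1 was lower in all 22 alternatives that measured it (-2.58 to -1.33) and passed in 12 of them, with limma adjusted p from 0.0184 to 0.278. With 1 array left out, it passed without WT replicate 3 or without p63KO replicate 1 and missed the threshold without any of the other 7 arrays (limma adjusted p from 0.0694 to 0.189). In p63KO against WT it was -0.85 (-1.41 to -0.29, limma adjusted p = 0.372). The squamous basal markers given above were lower in the same knockout groups, and their part in the result was not tested.

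Fst, the activin antagonist follistatin, had the lowest p of the targets in p63KO/Villin-Cdx2 against p63KO. Its log2 ratio was -0.91 and -0.35 in p63KO/Villin-Cdx2, 0.57, -0.07 and 0.27 in p63KO, and 0.24, 0.47, 0.83 and 0.69 in WT. Both p63KO/Villin-Cdx2 arrays were below all the others. The shares of all genes lower without overlap were 13.8% against WT and 18.0% against p63KO. The difference was -0.88 against p63KO (-1.45 to -0.31, limma adjusted p = 0.362) and -1.18 against WT (-1.72 to -0.64, limma adjusted p = 0.0537), and in the sample channel the comparison with WT passed with a limma adjusted p of 0.0481. Fst was lower than in WT in all 23 alternatives and passed in 5 of them.

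**Figure D5:**
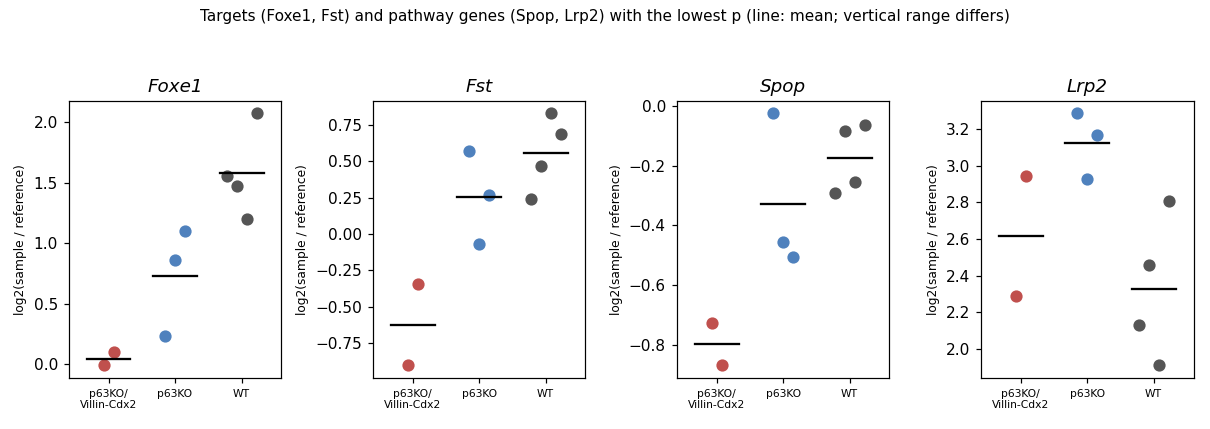
Log2 ratio of sample over reference RNA (vertical axis, with a different range in each panel) for the target genes Foxe1 and Fst and the pathway genes Spop and Lrp2, by genotype. Each point is 1 array and each line is a group mean. The 2 p63KO/Villin-Cdx2 arrays are the lowest of all for Foxe1, Fst and Spop, and the p63KO arrays are above the WT arrays for Lrp2.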

How the data were processed

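Total RNA of 9 esophagus samples was measured on 2-colour Agilent arrays, Cy5 sample over Cy3 reference. Per the file headers, Feature Extraction 10.7.3.1 wrote the mean intensity and local median background of each spot, and the submitters' processing notes name version 9.1. Processed intensities and a log10 ratio are further columns of that software, per the file headers, and the deposited value table holds log2 ratios made by the authors, with centring and direction unstated. Its columns correlated at 0.992 or more with the scanner ratios of the same arrays, with medians from -0.213 to -0.0281, so its direction and log base follow them while its centring remains unknown.

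From 45018 spots, 1639 controls and the outlier spots (119 to 171 per array) were left out. Background was corrected with normexp (offset 50), ratios were normalized by loess within arrays, spots of a probe were averaged, and probes well above background in Cy5 on at least 2 of 9 arrays were kept (33749 of 41174). The brightest probe per gene was tested. The sample channel was taken after loess and Aquantile. Names came from the files and a RefSeq table (GRCm38.p6), coordinates from the files (mm9), and sequences from the files. The sample channel fold of Foxe1 sets each array of the dim group no lower than its dimmest probe well above background. This left the group mean of Foxe1 unchanged.

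Comparisons used limma 3.58.1 in R 4.3.3, 1 model over 9 arrays and 3 genotypes, eBayes, with Benjamini-Hochberg adjustment at 0.05 over 22619 names. The small number of arrays limits the precision. The fit was tested on simulated data. The members, the pathway, target and marker lists and the tests were chosen with earlier results of these data known, and the gastric, intestinal and lung lists after values were seen. A further marker list is not reported here. All members are named. From the pathway and target lists, up to 4 passing genes per direction are named, or else the gene with the lowest p, and for Shh, Ihh and Gli1 the 3 genes of highest correlation. Slide and scan coincide with genotype. The deviations of same-numbered arrays from their group means had correlations from -0.13 to 0.19 over 7 pairs, 2 of them over 0.1. In the group of 2 arrays the deviations mirror each other, so these values cannot decide whether arrays were paired. The labels call the samples biological replicates. Other background corrections, normalizations, filters, probe summaries, priors and subsets of arrays were tried as alternatives.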

Additional observations from a re-analysis of the deposited data

Results flagged for a closer look

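Within the WT group, the gap between the highest or lowest array and its nearest neighbour was set against the range of the group, for 16 probes of the members. It passed Dixon's 95% critical value for 4 arrays in 4 probes, and chance alone passes about 1 group in 20. The main Ihh probe was 1.92 on WT replicate 1, against -0.05 to 0.02 on the other WT arrays. The second Ihh probe was 1.76 on the same array, against -0.08 to 0.04. The second Hhip probe was 0.60 on WT replicate 3, against 2.35 to 2.53. The second Sufu probe was -0.12 on WT replicate 3, against -0.43 to -0.38, which is a small step. Shh and the main Hhip probe were also lowest on WT replicate 3 but did not pass the limit.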

How the results depend on the processing

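With each of 23 alternatives, 0 of the 9 members passed the adjusted threshold in each of the 3 comparisons. The alternatives are not independent checks. For Foxe1 against WT, Aquantile repeated the main difference of -1.53, and the authors' table and the software's processed signals both gave -2.58. The count over all genes did move. It was 74 in p63KO against WT and ranged from 22 to 121 with 1 array left out and from 9 to 401 under 14 other settings. In p63KO/Villin-Cdx2 against p63KO it was 0, with ranges of 0 to 36 and 0 to 53, and in p63KO/Villin-Cdx2 against WT it was 318, with ranges of 58 to 371 and 8 to 803. The replicate block gave 0 of 9 members in each comparison, and samples of equal replicate number share only that number in the labels. Slide as a block was not run, because each genotype lay on a slide of its own. The fits without WT replicates 1 and 3 together were chosen after seeing the data. Leaving out WT replicate 3 turned the sign of Shh in p63KO against WT and brought the main Hhip probe to 0.04 and 0.06 against WT. The second Hhip probe was not refitted in this way. Leaving out WT replicate 1 turned the sign of Ihh against WT. Over all alternatives the sign in p63KO against WT turned in 7 of 23 for Gli1, 5 of 23 for Ptch1, 4 of 23 for Shh, 3 of 23 for Hhip and for Gli2, 2 of 22 for Ihh and 1 of 23 for Gli3. In p63KO/Villin-Cdx2 against WT it turned in 7 of 23 for Gli1 and for Gli2, 4 of 22 for Ihh, 3 of 23 for Hhip, 2 of 23 for Shh and 1 of 23 for Gli3. The sign in p63KO/Villin-Cdx2 against p63KO turned in 5 of 23 for Hhip, 4 of 22 for Ihh, 3 of 23 for Sufu, 2 of 23 for Gli1 and 1 of 23 for Gli2 and for Gli3. The cause was not tested. Foxe1 in p63KO/Villin-Cdx2 against WT, the only target past the threshold, passed in 12 of 22. Smo against WT, Smo in p63KO/Villin-Cdx2 against p63KO and Sufu against WT were lower in each alternative run, without passing the threshold. For these signs the fit of every probe on its own was read from the brightest probe only. The third Smo probe was higher by 0.09 in p63KO/Villin-Cdx2 against p63KO. A p that misses the threshold does not show that the genotypes are alike, and the widths of the intervals give what these arrays can bound.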
